A study of Mus musculus with 24 samples.

Results

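The genes described here are 37 genes of the type I interferon response, taken by name from a table of 56748 genes. They comprise 2 receptor chains, 4 transcription factors, 7 sensors and adaptors of foreign or misplaced nucleic acid, 10 genes that act on RNA, DNA or nucleotides, 5 membrane or dynamin-like proteins, 5 genes of ISG15 conjugation and ADP-ribosylation, and 4 further induced genes. Of the 37, 35 had enough counts to be tested. Ifitm3, a membrane protein that blocks viral entry, was listed at 0 in all 24 libraries, and Isg15, a ubiquitin-like modifier, had at most 11 counts in a library, so neither was tested. Whether Ifitm3 was not expressed or was dropped in the counting is not known.

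The 24 RNA-seq libraries, 3 for each of 8 groups, were made from cells sorted out of mouse bone marrow, although a tissue label reads blood. The groups were KO and WT cells of 4 sorted populations, the haematopoietic stem cells (HSC) and 3 kinds of multipotent progenitor (MPP1, MPP2 and MPP4). All 8 groups carry tamoxifen as their treatment, a drug often used to switch on an inducible Cre recombinase, and the labels give no dose, time, Cre driver, strain, age, sex or pooling, nor the gene that was knocked out. Whether the 3 libraries of a group are separate animals is not stated, so the p-values cover only library-to-library spread, possibly of technical origin.

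Type I interferons are secreted proteins that bind a receptor of the IFNAR1 and IFNAR2 chains. The kinases JAK1 and TYK2 then phosphorylate STAT2, which joins IRF9 in a complex that enters the nucleus, binds the interferon-stimulated response element and switches on a large set of antiviral genes. The pathway is known to matter in blood stem cells: in mice, interferon drives dormant HSC into the cell cycle, and lasting exposure impairs them. It can be started from inside a cell by double-stranded RNA, sensed by MDA5 (Ifih1) through MAVS or by PKR (Eif2ak2), and by cytosolic DNA through STING.

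Total counts ran from 2540511 to 3807003 per library, and levels are given in CPM, the count scaled to a common library total. Ddx6, an RNA helicase needed for P-bodies and the presumed target of the knockout from general knowledge of the study, had 194 to 308 counts in KO-labelled libraries and 154 to 319 in WT libraries. It was called higher in KO-labelled MPP1 (log2 fold change 0.61, adjusted p = 0.0211) and over the 4 populations (0.32, adjusted p = 0.00355), and in neither after subtraction of the background counts (adjusted p = 0.308 and 0.784). It was not called lower in any population, and a count over the whole gene does not show whether an exon was deleted. The group is therefore called KO-labelled throughout. Markers went against 2 of the population names. Flt3, a marker of lymphoid-primed progenitors, had 481 to 625 CPM in KO-labelled and 1080 to 1180 CPM in WT cells of the MPP2 label. It had 75.8 to 91.9 CPM in KO-labelled and 54.5 to 81.0 CPM in WT cells of the MPP4 label. Slamf1, a marker of megakaryocyte and erythroid-primed progenitors, had 7.01 to 9.36 CPM in WT cells of the MPP2 label. Under the MPP4 label it had 34.8 to 53 CPM. Gata1, Vwf and Itga2b were likewise higher under the MPP4 label in WT cells, and Cd48 was lower. Ccr9, a lymphoid-primed marker, did not follow Flt3, with 5.47 to 6.86 and 12.3 to 23.3 CPM in the same order. In MPP1 Flt3 had 548 to 603 CPM in KO-labelled and 407 to 446 CPM in WT cells. The populations of the MPP2 and MPP4 labels are called MPP2-labelled and MPP4-labelled. Counts on 1770 olfactory and vomeronasal receptor genes, assumed to be silent in these cells, were read as background. That assumption was not tested. They followed the span of a gene more closely than its exon length. Between receptor genes with the lowest and highest span over exon length, the count per kb of span fell from 14.6 to 9.14. Per kb of exon it rose from 15.1 to 41.6. A single density per library can therefore subtract too much from genes with a long span for their exon length, and too little from others. Background estimated in this way made up 5.45 to 5.83% of counts in KO-labelled HSC and 20.8 to 23.8% in WT HSC, and 13.8 to 14.3% in KO-labelled MPP1 and 23.4 to 25.1% in WT MPP1. It made up 8.80 to 10.2% in KO-labelled and 11.5 to 11.9% in WT MPP2-labelled cells, and 18.4 to 19.0% in KO-labelled and 31.0 to 31.1% in WT MPP4-labelled cells. Because it moves with genotype in each population, calls are given for the counts as deposited and after subtraction of the background.

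**Figure D1:**
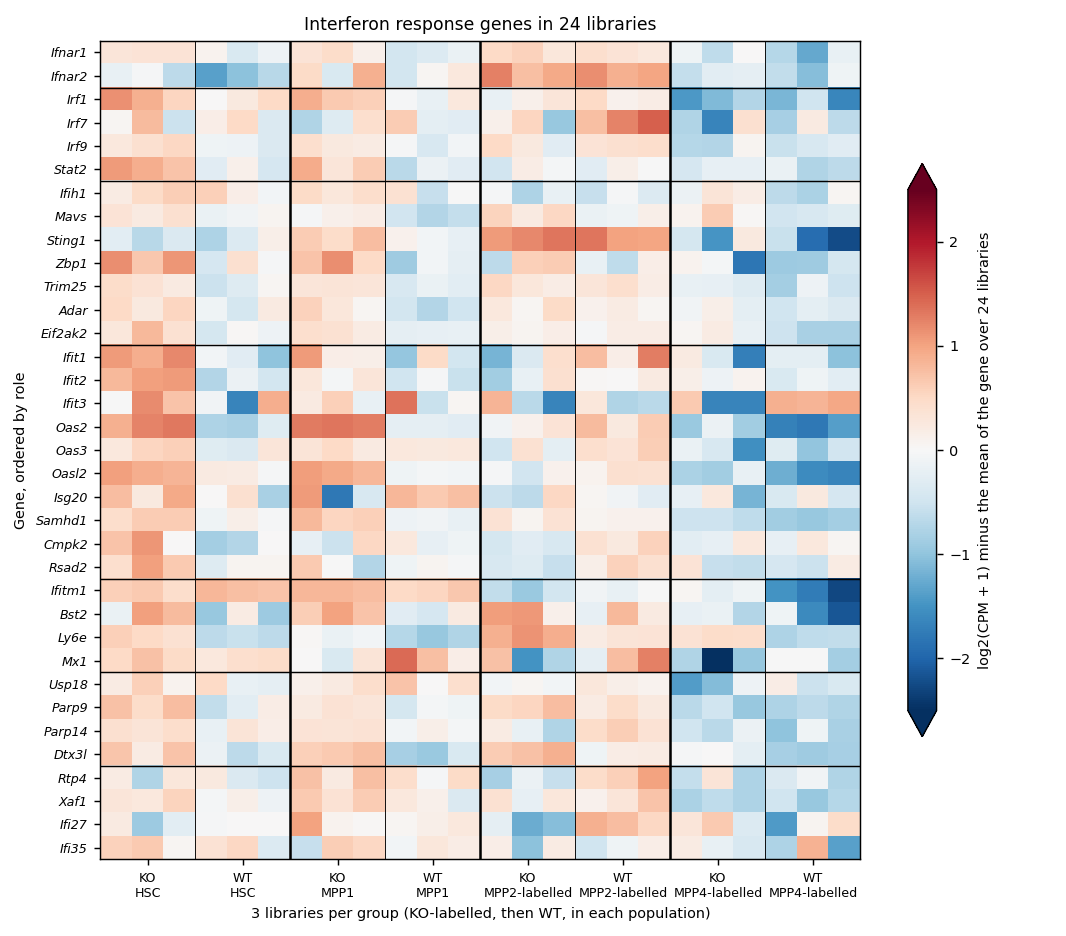
Levels of the 35 tested genes (rows, grouped by role) in the 24 libraries (columns, 3 per group, KO-labelled left of WT in each population), as log2(CPM + 1) minus the mean of the gene over all 24 libraries. Of the 35 genes, 14 had their highest group mean in KO-labelled HSC and 16 their lowest in WT MPP4-labelled cells.

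In HSC the count of interferon response genes called depended on how background was treated. Of the 35 tested genes, 18 rose and 0 fell in KO-labelled HSC (edgeR quasi-likelihood test, Benjamini-Hochberg adjusted p below 0.05), where 18.3% of all 21964 genes tested rose and 24.8% fell. Their median log2 fold change was 0.60, against -0.31 over all genes tested, and 32 of the 35 had a positive value. After the background was subtracted, Oas2, Ifit2 and Ly6e were still called higher and Ifitm1 was called lower, with 4.42% of 18441 genes called higher and 4.20% called lower, and the medians were 0.16 for the members and -0.18 for all genes. Subtraction also changed the scaling of the libraries, and genes with little background of their own moved too. Background made up 0.67% of the Samhd1 count in KO-labelled HSC and 3.21% in WT HSC, and its log2 fold change went from 0.58 to 0.064. For Oasl2 it made up 0.277% and 1.54%, and the log2 fold change went from 0.79 to 0.26. With libraries scaled by medians of ratios, 11 of the 18 genes were called, without Ifnar2, Irf9, Zbp1, Adar, Ifit1, Oas3 and Rsad2. In bulk RNA, fewer cells that express a gene and less of its RNA per cell cannot be told apart. Members were named here largely by a rule that required a call and no overlap between the groups. Statements below that groups do not overlap therefore describe the values and add no support to the calls.

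The receptor and its transcription factors were measured in HSC first. Ifnar2, the chain that binds interferon most tightly, had 42.9, 47.97 and 30.96 CPM in KO-labelled HSC, against 18.6, 23.6 and 30 CPM in WT HSC (log2 fold change 0.75 ± 0.27, adjusted p = 0.0244). Stat2, the interferon-activated subunit that carries the transactivation domain of the complex, had 122, 109 and 95.1 CPM in KO-labelled HSC, against 47.4, 63.1 and 42.9 CPM in WT HSC (log2 fold change 1.09 ± 0.22, adjusted p = 8.94e-05), with the groups well apart. Irf9, which brings the complex to DNA, also rose, with 83.3 to 99.5 CPM in KO-labelled HSC and 53.7 to 64.6 CPM in WT HSC (log2 fold change 0.60 ± 0.20, adjusted p = 0.016). The receptor chain Ifnar1 and the factors Irf1 and Irf7, which drive interferon and its targets, did not pass the test (log2 fold changes 0.46, 0.64 and 0.058). The call of Ifnar2 was lost without WT HSC replicate 1 or 2 or KO-labelled HSC replicate 1 or 2 (log2 fold changes 0.60 to 0.74, adjusted p from 0.0572 to 0.113). That of Irf9 was lost without WT HSC replicate 3 or KO-labelled HSC replicate 3 (log2 fold changes 0.52 to 0.53, adjusted p from 0.0638 to 0.07). None of the 3 was called after background subtraction. The values then were log2 fold changes of 0.50 for Ifnar2 (adjusted p = 0.368), 0.63 for Stat2 (adjusted p = 0.09) and 0.065 for Irf9 (adjusted p = 0.895).

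Among the sensors, 4 of 7 rose in HSC. Eif2ak2, which codes for the kinase PKR and shuts down translation when it meets double-stranded RNA, had 171, 247 and 184 CPM in KO-labelled HSC, against 104, 144 and 129 CPM in WT HSC (log2 fold change 0.67 ± 0.14, adjusted p = 0.000208). Trim25, a ubiquitin ligase that acts on the RNA sensor RIG-I, had 173, 161 and 146 CPM in KO-labelled HSC, against 86.2, 100.5 and 130.3 CPM in WT HSC (log2 fold change 0.60 ± 0.15, adjusted p = 0.00191). Libraries of the 2 groups did not overlap for either gene. Adar, which edits adenosine in double-stranded RNA and so hides it from sensing, had 117 to 143 CPM in KO-labelled HSC and 72.2 to 115 CPM in WT HSC (log2 fold change 0.52 ± 0.17, adjusted p = 0.0122). Zbp1, a sensor of left-handed nucleic acid that starts cell death, had 27.02 to 38.3 CPM in KO-labelled HSC and 12.2 to 22.3 CPM in WT HSC (log2 fold change 1.01 ± 0.42, adjusted p = 0.0485). Ifih1, Mavs and Sting1, the sensors and adaptors upstream of interferon itself, did not pass the test (log2 fold changes 0.19, 0.40 and -0.16). The call of Adar was lost without WT HSC replicate 2 or KO-labelled HSC replicate 3 (log2 fold changes 0.37 to 0.47, adjusted p from 0.0524 to 0.109). That of Zbp1 was lost without WT HSC replicate 1 or 3 or KO-labelled HSC replicate 1 or 3 (log2 fold changes 0.82 to 0.98, adjusted p from 0.11 to 0.175). None of the 4 was called after background subtraction (log2 fold changes 0.044 for Adar to 0.61 for Zbp1, adjusted p from 0.496 to 0.921).

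Of the 10 genes that act on RNA, DNA or nucleotides, 8 rose in KO-labelled HSC. Oas2, an oligoadenylate synthetase (ENSMUSG00000032690.17, chromosome 5) that makes the messenger activating RNase L, had 319, 407 and 432 CPM in KO-labelled HSC, against 101, 97.9 and 139 CPM in WT HSC (log2 fold change 1.78 ± 0.16, adjusted p = 8.36e-12), a 3.43-fold difference. Its 3 KO-labelled libraries lay far above its 3 WT libraries, and the call held after background subtraction (log2 fold change 1.26, adjusted p = 9.59e-05). Oas3, a paralog on the same chromosome, rose less, with 177, 213 and 223 CPM in KO-labelled HSC, against 119, 114 and 182 CPM in WT HSC (log2 fold change 0.56 ± 0.21, adjusted p = 0.028), and its groups overlapped. Oasl2, an oligoadenylate synthetase-like gene also on chromosome 5, had 298, 275 and 266 CPM in KO-labelled HSC, against 171, 169.5 and 144 CPM in WT HSC (log2 fold change 0.79 ± 0.15, adjusted p = 3.74e-05). Ifit2, whose protein binds viral RNA and the translation machinery (ENSMUSG00000045932.13, chromosome 19), had 51.9, 60.5 and 61.9 CPM in KO-labelled HSC, against 17.2, 26.3 and 20.9 CPM in WT HSC (log2 fold change 1.44 ± 0.29, adjusted p = 0.000121). Every KO-labelled HSC library was above every WT HSC library for Oasl2 and Ifit2, and Ifit2 held its call after subtraction (log2 fold change 1.16, adjusted p = 0.0222) while Oasl2 did not (log2 fold change 0.26, adjusted p = 0.319).

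Ifit1, which binds RNA lacking the host cap methylation, rose at low levels, with 16.4, 14.5 and 18.01 CPM in KO-labelled HSC, against 6.93, 5.84 and 3.14 CPM in WT HSC (log2 fold change 1.61 ± 0.60, adjusted p = 0.0292). Samhd1, which breaks down deoxynucleotides, had 259, 298 and 297 CPM in KO-labelled HSC, against 176, 211 and 185 CPM in WT HSC (log2 fold change 0.58 ± 0.11, adjusted p = 6.44e-05), with no overlap between the groups and no call after subtraction (log2 fold change 0.064, adjusted p = 0.751). Cmpk2, a mitochondrial nucleotide kinase, and Rsad2, the antiviral radical-SAM enzyme viperin, are neighbours on chromosome 12. Cmpk2 had 18.9 to 41.2 CPM in KO-labelled HSC and 9.97 to 18.9 CPM in WT HSC (log2 fold change 1.20 ± 0.37, adjusted p = 0.00876). Rsad2 had 43.2 to 66.2 CPM in KO-labelled HSC and 25.5 to 33.7 CPM in WT HSC (log2 fold change 0.79 ± 0.31, adjusted p = 0.0355). The exonuclease gene Isg20 and Ifit3, which is near-identical to its copy Ifit3b, did not pass the test (log2 fold changes 0.78 and 0.85). After subtraction Ifit1 (log2 fold change 1.499, adjusted p = 0.322), Oas3 (log2 fold change 0.043, adjusted p = 0.953), Cmpk2 (log2 fold change 0.81, adjusted p = 0.204) and Rsad2 (log2 fold change 0.33, adjusted p = 0.6) were not called. The calls of these 4 genes were also lost when any one of several libraries was left out. That of Ifit1 was lost without WT HSC replicate 2 or 3 or KO-labelled HSC replicate 1 or 3 (log2 fold changes 1.35 to 1.69, adjusted p from 0.0585 to 0.121). That of Oas3 was lost without WT HSC replicate 1 or 2 or KO-labelled HSC replicate 2 or 3 (log2 fold changes 0.44 to 0.54, adjusted p from 0.0654 to 0.129). Cmpk2 was not called without WT HSC replicate 1 or KO-labelled HSC replicate 2 (log2 fold changes 0.93 to 1.04, adjusted p from 0.0539 to 0.0798). Rsad2 was not called without WT HSC replicate 1, 2 or 3 or KO-labelled HSC replicate 2 or 3 (log2 fold changes 0.61 to 0.86, adjusted p from 0.0542 to 0.164).

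Among membrane proteins, Ly6e was the gene with the smallest adjusted p of all members in HSC. Ly6e, a lipid-anchored surface protein that limits entry of coronaviruses (ENSMUSG00000022587.16, chromosome 15), had 589.9, 552 and 507 CPM in KO-labelled HSC, against 247, 263 and 247 CPM in WT HSC (log2 fold change 1.12 ± 0.092, adjusted p = 3.43e-13). The groups did not overlap, and the call held after subtraction (log2 fold change 0.57, adjusted p = 6.6e-05). Background made up at most 0.409% of the Ly6e count in any group, so the difference between its log2 fold changes of 1.12 and 0.57 came from the scaling of the libraries and not from its own count. Ifitm1, a paralog of Ifitm3 that blocks membrane fusion of viruses, had 119, 125 and 107 CPM in KO-labelled HSC, against 139.6, 132 and 129 CPM in WT HSC. All 3 KO-labelled libraries were below the 3 WT libraries, the difference did not pass the test as deposited (log2 fold change -0.19 ± 0.16, adjusted p = 0.344), and it was called after subtraction (log2 fold change -0.74, adjusted p = 0.00276). Background made up 0.113% of the Ifitm1 count in KO-labelled HSC and 0.316% in WT HSC, so this call came with the change of scaling, as the shift of Ly6e did. Bst2 (tetherin) and Mx1, a dynamin-like GTPase, did not pass the test at up to 20.3 and 11.2 CPM in KO-labelled HSC (log2 fold changes 1.18 and 0.21).

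Dtx3l and Parp9, a ubiquitin ligase and an ADP-ribosyltransferase that work as a pair and lie head to head on chromosome 16, both rose in HSC. Dtx3l had 133, 94.2 and 134 CPM in KO-labelled HSC, against 73.7, 51.5 and 62.9 CPM in WT HSC (log2 fold change 0.94 ± 0.17, adjusted p = 3.21e-05). Parp9 had 97.6, 81.1 and 100.5 CPM in KO-labelled HSC, against 37.96, 48.5 and 66.3 CPM in WT HSC (log2 fold change 0.87 ± 0.20, adjusted p = 0.000513). The 2 groups did not overlap for either gene, and neither was called after subtraction (log2 fold changes 0.43 for Dtx3l, adjusted p = 0.135, and 0.46 for Parp9, adjusted p = 0.157). The 2 genes overlap in the annotation, where reads without strand information cannot be told apart. Parp14, another ADP-ribosyltransferase, and Usp18, the protease that removes ISG15 and damps the receptor, did not pass the test, nor did the induced genes Rtp4, Xaf1, Ifi27 and Ifi35 (log2 fold changes -0.26 to 0.39 over these 6). Isg15 had 1.39, 3.72 and 1.58 CPM in KO-labelled HSC, against 0.554, 0 and 1.14 CPM in WT HSC, counts too low to test.

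Promoters are shown for 5 of the 18 genes that rose in HSC and for Isg15, because they hold the core of the interferon-stimulated response element. The motif searched was GAAANNGAAA on either strand (TTTCNNTTTC when read on the gene's strand), in the 250 bases before and 50 after the annotated start. Of the 37 members, 27 had an entry in RefSeq (GRCm38.p6), with 34 promoters between them. The motif was in 10 of these 34 promoters and in 3.44% of all 32851 promoters of that length. Each sequence below runs on the strand of its gene over 280 bases, 250 before the start and 30 after it, with motif matches in capitals, overlapping matches running together.
Stat2, chr10:128270248-128270527, plus strand: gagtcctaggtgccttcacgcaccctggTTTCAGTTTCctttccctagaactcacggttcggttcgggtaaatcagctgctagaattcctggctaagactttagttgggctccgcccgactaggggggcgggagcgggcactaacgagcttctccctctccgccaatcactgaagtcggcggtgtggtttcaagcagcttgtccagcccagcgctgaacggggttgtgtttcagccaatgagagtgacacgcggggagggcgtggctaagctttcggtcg
Eif2ak2, chr17:78882543-78882822, minus strand: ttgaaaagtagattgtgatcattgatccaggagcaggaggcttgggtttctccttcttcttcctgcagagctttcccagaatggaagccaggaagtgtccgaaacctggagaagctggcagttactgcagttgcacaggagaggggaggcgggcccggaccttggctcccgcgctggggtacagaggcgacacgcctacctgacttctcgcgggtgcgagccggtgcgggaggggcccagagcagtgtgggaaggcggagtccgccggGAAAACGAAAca
Ifit1, chr19:34640639-34640918, plus strand: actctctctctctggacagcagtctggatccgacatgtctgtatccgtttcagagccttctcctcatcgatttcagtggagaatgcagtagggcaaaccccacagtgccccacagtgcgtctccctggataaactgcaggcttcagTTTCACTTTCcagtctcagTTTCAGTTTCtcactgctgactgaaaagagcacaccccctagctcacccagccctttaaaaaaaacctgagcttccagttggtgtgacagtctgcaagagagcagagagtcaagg
Oas3, chr5:120777630-120777909, minus strand: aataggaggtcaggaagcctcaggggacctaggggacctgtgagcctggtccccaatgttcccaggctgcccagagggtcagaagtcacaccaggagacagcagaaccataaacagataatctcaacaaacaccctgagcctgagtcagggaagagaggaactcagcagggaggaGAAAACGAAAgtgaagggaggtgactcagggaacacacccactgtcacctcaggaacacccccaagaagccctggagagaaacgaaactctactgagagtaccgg
Rsad2, chr12:26456423-26456702, minus strand: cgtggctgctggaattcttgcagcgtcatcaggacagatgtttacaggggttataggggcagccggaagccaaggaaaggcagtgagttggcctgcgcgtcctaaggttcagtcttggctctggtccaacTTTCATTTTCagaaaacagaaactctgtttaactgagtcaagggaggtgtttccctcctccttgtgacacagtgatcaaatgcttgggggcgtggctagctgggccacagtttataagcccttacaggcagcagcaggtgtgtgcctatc
Isg15, chr4:156200789-156201068, minus strand: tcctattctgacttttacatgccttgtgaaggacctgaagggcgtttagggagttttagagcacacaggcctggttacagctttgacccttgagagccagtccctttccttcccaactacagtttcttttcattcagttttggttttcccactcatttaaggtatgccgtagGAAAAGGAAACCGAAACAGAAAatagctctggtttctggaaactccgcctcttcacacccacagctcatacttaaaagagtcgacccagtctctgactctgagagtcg
The match in Stat2 began 222 bases before the start, that in Oas3 75, that in Rsad2 120, and the first of 2 in Ifit1 104. The match in Eif2ak2 began 18 bases after the start, and Isg15 held 3 overlapping matches, the first beginning 78 bases before it. Of the tested members with a match, 5 of 8 rose in KO-labelled HSC, and of those with a promoter entry and no match, 9 of 17 did, so the motif did not separate risers from the rest by count. A match is a run of letters and not a measured binding site.

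In MPP1, 12 of the 35 tested genes rose in KO-labelled cells and 0 fell, where 8.71% of all genes tested rose and 4.90% fell. The members' median log2 fold change was 0.54, against -0.10 over all genes. After background subtraction, Oas2, Ly6e, Dtx3l, Samhd1, Oasl2 and Adar were still called higher, with 3.20% of all genes called higher and 2.83% lower. Oas2 had 423, 440.3 and 421 CPM in KO-labelled MPP1, against 147, 148 and 142 CPM in WT MPP1 (log2 fold change 1.55 ± 0.16, adjusted p = 9.42e-10), the largest log2 fold change among the 12 called genes. Dtx3l had 124, 131 and 139.7 CPM in KO-labelled MPP1, against 45.9, 42.5 and 63 CPM in WT MPP1 (log2 fold change 1.38 ± 0.18, adjusted p = 1.31e-07). Oasl2 had 303, 283 and 260.1 CPM in KO-labelled MPP1, against 135, 141 and 140.0 CPM in WT MPP1 (log2 fold change 1.02 ± 0.15, adjusted p = 1.79e-06). In each of these 3 genes the lowest KO-labelled library was above the highest WT library. Samhd1 had 333, 276 and 288 CPM in KO-labelled MPP1, against 174, 179 and 167 CPM in WT MPP1 (log2 fold change 0.79 ± 0.11, adjusted p = 1.24e-06). Ly6e had 398, 347 and 369.8 CPM in KO-labelled MPP1, against 238, 202 and 231 CPM in WT MPP1 (log2 fold change 0.73 ± 0.092, adjusted p = 7.63e-08).

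Of the 7 sensors, 5 rose in MPP1 as deposited, and 1 of these, Adar, was called after subtraction. Adar had 146, 120.3 and 101 CPM in KO-labelled MPP1, against 71.2, 58.5 and 69.2 CPM in WT MPP1 (log2 fold change 0.89 ± 0.17, adjusted p = 0.000189). Eif2ak2 had 189, 183 and 163 CPM in KO-labelled MPP1, against 119.7, 122 and 124 CPM in WT MPP1 (log2 fold change 0.55 ± 0.14, adjusted p = 0.00588). Trim25 had 154 to 158 CPM in KO-labelled MPP1 and 95.3 to 111 CPM in WT MPP1 (log2 fold change 0.58 ± 0.15, adjusted p = 0.00695). Levels of Eif2ak2 and Trim25 in KO-labelled MPP1 thus lay clear of WT MPP1, but neither was called after subtraction (log2 fold change 0.25, adjusted p = 0.395 and log2 fold change 0.27, adjusted p = 0.405). Mavs, the mitochondrial adaptor of RNA sensing, had 47.8 to 55.2 CPM in KO-labelled MPP1 and 29.1 to 34.7 CPM in WT MPP1 (log2 fold change 0.71 ± 0.22, adjusted p = 0.0206). Zbp1 had 23.7 to 38.2 CPM in KO-labelled MPP1 and 8.53 to 15.7 CPM in WT MPP1 (log2 fold change 1.23 ± 0.43, adjusted p = 0.0471). Of the transcription factors Stat2 rose, with 109.6, 71.5 and 89.4 CPM in KO-labelled MPP1, against 35.6, 51.6 and 47.3 CPM in WT MPP1 (log2 fold change 1.01 ± 0.22, adjusted p = 0.000837), and its value after subtraction was just outside the threshold (log2 fold change 0.76, adjusted p = 0.0514). The receptor chain Ifnar1 had 86.8 to 109.9 CPM in KO-labelled MPP1 and 57.3 to 70.8 CPM in WT MPP1 (log2 fold change 0.64 ± 0.20, adjusted p = 0.0227). The calls of 3 genes were lost when any one of several libraries was left out. Ifnar1 was not called without WT MPP1 replicate 1 or 2 or KO-labelled MPP1 replicate 1 or 2 (log2 fold changes 0.56 to 0.64, adjusted p from 0.0594 to 0.108). Mavs was not called without WT MPP1 replicate 2 or 3 or KO-labelled MPP1 replicate 2 or 3 (log2 fold changes 0.65 to 0.71, adjusted p from 0.0644 to 0.0951). Zbp1 was not called without WT MPP1 replicate 1, 2 or 3 or KO-labelled MPP1 replicate 1, 2 or 3 (log2 fold changes 1.01 to 1.41, adjusted p from 0.0552 to 0.209). None of these 3 was called after subtraction (adjusted p = 0.436, 0.223 and 0.31 for Ifnar1, Mavs and Zbp1). The other 23 genes had log2 fold changes of -0.96 (Mx1) to 0.99 (Bst2) and did not pass.

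In MPP2-labelled cells calls went both ways. Of 35 tested genes, 2 rose and 4 fell in KO-labelled cells, where 3.73% of all genes rose and 4.17% fell, and the medians were -0.045 for the members and -0.070 for all genes. Ly6e had 720.4, 850.3 and 737 CPM in KO-labelled cells, against 447, 485 and 495 CPM in WT cells (log2 fold change 0.69 ± 0.09, adjusted p = 2.64e-07). Dtx3l had 128, 138 and 154 CPM in KO-labelled cells, against 76.5, 93.9 and 94.7 CPM in WT cells (log2 fold change 0.66 ± 0.17, adjusted p = 0.0103). Both were higher in each KO-labelled library than in each WT library. Ifitm1 went the other way, with 51.2, 40.9 and 56.6 CPM in KO-labelled cells, against 73.6, 68.8 and 77.8 CPM in WT cells (log2 fold change -0.57 ± 0.17, adjusted p = 0.0306). Parp14 had 71.4, 54.1 and 36.4 CPM in KO-labelled cells, against 85.2, 95.3 and 79.7 CPM in WT cells (log2 fold change -0.69 ± 0.22, adjusted p = 0.0447). Rtp4, a receptor-transporting protein that damps flavivirus and interferon responses, had 15.1, 25.1 and 18.4 CPM in KO-labelled cells, against 38.7, 42.3 and 57.1 CPM in WT cells (log2 fold change -1.23 ± 0.34, adjusted p = 0.0148). Ifi27, a small interferon-induced membrane protein, had 8.15, 3.54 and 4.12 CPM in KO-labelled cells, against 18.7, 17.3 and 14.3 CPM in WT cells (log2 fold change -1.67 ± 0.54, adjusted p = 0.0456). These 4 were below the WT libraries in every KO-labelled library.

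After background subtraction, Ly6e was called higher and Ifitm1, Parp14 and Oasl2 lower in MPP2-labelled cells, with 1.63% of all genes called higher and 3.08% lower. Dtx3l, Rtp4 and Ifi27 were not called (log2 fold changes 0.53, -1.77 and -1.89, adjusted p = 0.103, 0.255 and 0.114). Oasl2 had 144, 105 and 157 CPM in KO-labelled cells, against 155, 192 and 189 CPM in WT cells (as deposited log2 fold change -0.41 ± 0.15, adjusted p = 0.0927, after subtraction log2 fold change -0.55, adjusted p = 0.0487), with 1 KO-labelled library reaching into the WT range. Oas2 did not pass, at 161, 186 and 220.4 CPM in KO-labelled and 301, 205 and 268 CPM in WT MPP2-labelled cells (log2 fold change -0.44 ± 0.16, adjusted p = 0.0808). Of the 6 calls, 5 were lost when some single library was left out. Ifitm1 was not called without WT MPP2 replicate 1, 2 or 3 or KO-labelled MPP2 replicate 1 or 2 (log2 fold changes -0.61 to -0.45, adjusted p from 0.051 to 0.175). The call of Parp14 ended without WT MPP2 replicate 1, 2 or 3 or KO-labelled MPP2 replicate 2 or 3 (log2 fold changes -0.75 to -0.47, adjusted p from 0.0715 to 0.265). Ifi27 was not called without WT MPP2 replicate 1, 2 or 3 or KO-labelled MPP2 replicate 2 or 3 (log2 fold changes -1.77 to -1.45, adjusted p from 0.0801 to 0.173). The call of Rtp4 ended without WT MPP2 replicate 3 or KO-labelled MPP2 replicate 1 or 3 (log2 fold changes -1.19 to -1.05, adjusted p from 0.0582 to 0.102). Dtx3l was not called without WT MPP2 replicate 1 or KO-labelled MPP2 replicate 3 (log2 fold changes 0.57 to 0.59, adjusted p from 0.0611 to 0.0879). Without WT MPP2-labelled replicate 1 or 3, 2 calls remained in number. The 29 genes that did not pass had log2 fold changes of -1.22 (Irf7) to 0.52 (Bst2).

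In MPP4-labelled cells, 9 of 35 tested genes rose in KO-labelled cells and 0 fell, where 11.4% of all genes rose and 6.47% fell. The members' median log2 fold change was 0.24, against -0.077 over all genes. Ifitm1 had the largest log2 fold change of the 9, with 80.8, 66.5 and 72.4 CPM in KO-labelled cells, against 27.2, 22.7 and 15.4 CPM in WT cells (log2 fold change 1.74 ± 0.18, adjusted p = 1.06e-09), a 3.35-fold difference opposite in sign to that in MPP2-labelled cells. Ly6e had 502, 538 and 529 CPM in KO-labelled cells, against 228, 251 and 254 CPM in WT cells (log2 fold change 1.10 ± 0.092, adjusted p = 2.7e-12). Neither gene had overlapping groups. Oas2 had 90.3, 156 and 94.3 CPM in KO-labelled cells, against 52.9, 49.5 and 66.3 CPM in WT cells (log2 fold change 1.02 ± 0.17, adjusted p = 1.91e-05). Oasl2 had 84.5, 79.98 and 128 CPM in KO-labelled cells, against 61.9, 48.7 and 46.1 CPM in WT cells (log2 fold change 0.90 ± 0.16, adjusted p = 4.73e-05). In both, 1 KO-labelled library stood above the other 2, replicate 2 for Oas2 and replicate 3 for Oasl2, and all 3 were above WT. These 4 genes were also called after background subtraction (log2 fold changes 1.39, 0.72, 0.71 and 0.57), where 4.48% of all genes were called higher and 2.86% lower.

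The other 5 genes that rose in MPP4-labelled cells were not called after the subtraction, with adjusted p of 0.0778 for Eif2ak2, 0.143 for Dtx3l, 0.287 for Mavs, 0.989 for Samhd1 and 0.302 for Sting1. Eif2ak2 had 146, 161 and 123 CPM in KO-labelled cells, against 97.4, 79.9 and 79.6 CPM in WT cells (log2 fold change 0.74 ± 0.15, adjusted p = 0.000212). Dtx3l had 80.3, 82.1 and 69.6 CPM in KO-labelled cells, against 45.4, 43.8 and 45.4 CPM in WT cells (log2 fold change 0.78 ± 0.18, adjusted p = 0.00133). Both lay above WT in each library. Mavs had 51.6, 76.1 and 49.8 CPM in KO-labelled cells, against 34.7, 36.95 and 39.3 CPM in WT cells (log2 fold change 0.68 ± 0.21, adjusted p = 0.0216). Samhd1 had 132, 132 and 122 CPM in KO-labelled cells, against 104, 97.98 and 105 CPM in WT cells (log2 fold change 0.34 ± 0.12, adjusted p = 0.0389). Sting1, the adaptor of cytosolic DNA sensing, had 29.8, 14.1 and 48.6 CPM in KO-labelled cells, against 27.2, 10.1 and 7.86 CPM in WT cells (log2 fold change 1.02 ± 0.33, adjusted p = 0.0268), with overlapping groups. Mavs was not called without WT MPP4 replicate 1 or 2 or KO-labelled MPP4 replicate 2 (log2 fold changes 0.46 to 0.68, adjusted p from 0.0575 to 0.181). Samhd1 was not called without WT MPP4 replicate 1, 2 or 3 or KO-labelled MPP4 replicate 1 or 2 (log2 fold changes 0.31 to 0.36, adjusted p from 0.0611 to 0.125). The call of Sting1 ended without WT MPP4 replicate 2 or 3 or KO-labelled MPP4 replicate 3 (log2 fold changes 0.55 to 0.79, adjusted p from 0.149 to 0.311). The 26 genes that did not pass had log2 fold changes of -1.85 (Ifit3, at most 14 counts in a KO-labelled library) to 0.79 (Bst2).

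**Figure D2:**
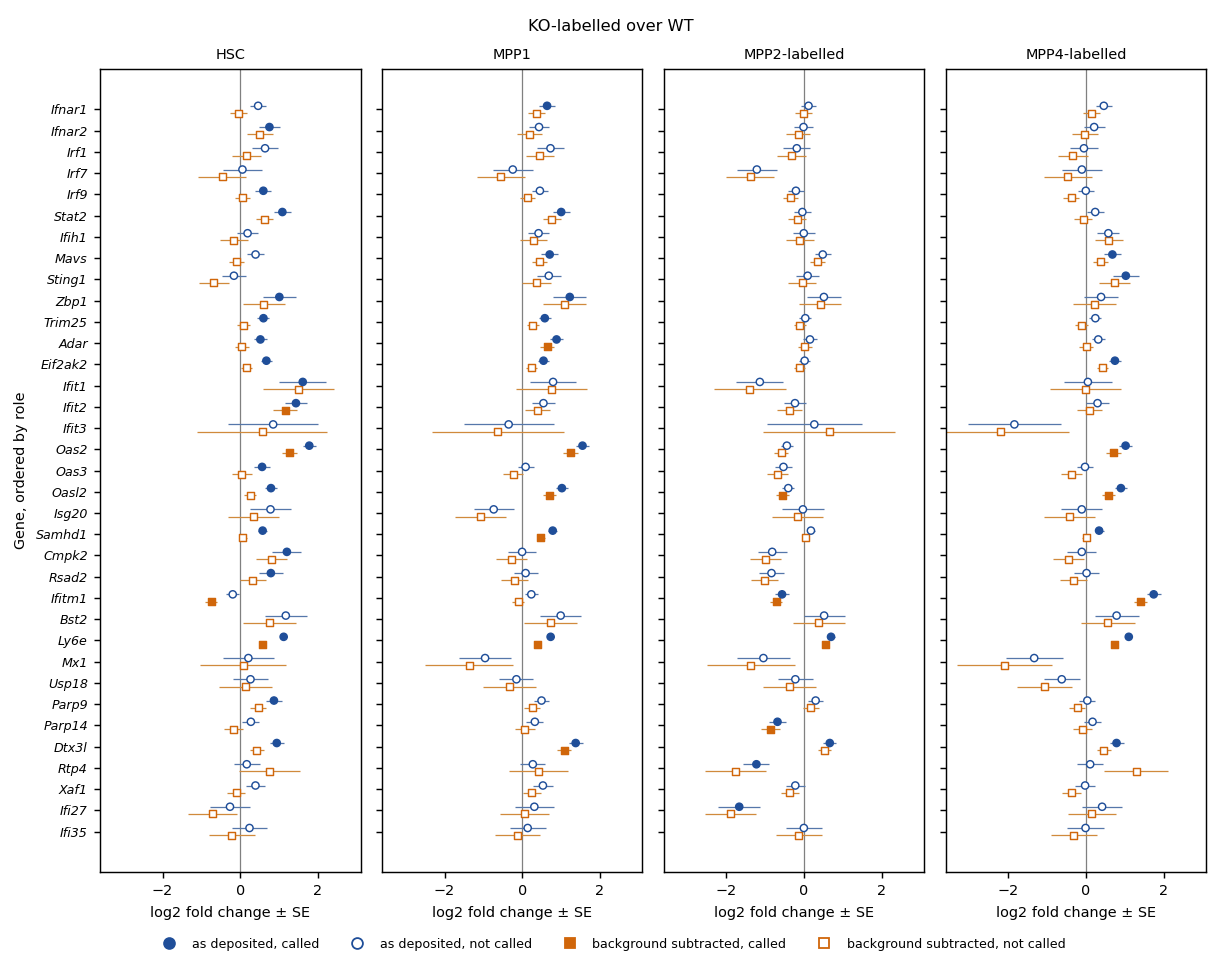
Log2 fold change of KO-labelled over WT cells (x axis, bars are ± SE of the fit) for the 35 tested genes (rows) in each population, for the counts as deposited (blue circles) and after background subtraction (orange squares); filled symbols have an adjusted p below 0.05. In HSC most orange symbols lie to the left of the blue ones, and 18 genes are called as deposited against 4 after subtraction.

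Over the 4 populations taken equally, 18 genes rose and 0 fell in KO-labelled cells, where 22.9% of all genes rose and 30.3% fell. Ly6e (log2 fold change 0.91 ± 0.046, adjusted p = 3.86e-20), Oas2 (log2 fold change 0.98 ± 0.082, adjusted p = 2.67e-13) and Dtx3l (log2 fold change 0.94 ± 0.088, adjusted p = 6.88e-12) had the smallest adjusted p. Samhd1, Oasl2 and Eif2ak2 followed with log2 fold changes of 0.47, 0.58 and 0.50 (adjusted p = 5.16e-09, 3.51e-08 and 2.79e-07). After subtraction 6 genes were called higher, namely Ly6e, Oas2, Dtx3l, Samhd1, Oasl2 and Mavs, with 9.60% of all genes called higher and 14.0% lower. The other 12 had adjusted p from 0.0729 (Eif2ak2) to 0.841 (Trim25). As deposited, Ly6e and Dtx3l were called higher in each of the 4 populations. Over the 4 populations, the call of Ifnar2 was lost without WT HSC replicate 1 or WT MPP1 replicate 1 or WT MPP4 replicate 2 or KO-labelled MPP2 replicate 1 or KO-labelled MPP1 replicate 3 (log2 fold changes 0.27 to 0.31, adjusted p from 0.0511 to 0.0804). That of Sting1 was lost without WT HSC replicate 1 or WT MPP4 replicate 2 or 3 or KO-labelled MPP4 replicate 3 (log2 fold changes 0.29 to 0.36, adjusted p from 0.0553 to 0.0973).

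Whether the change with genotype differed among populations was tested directly. It did for 13 of the 35 genes as deposited, where 17.7% of all genes were called, and for Oas2, Ifitm1 and Oasl2 after subtraction, where 6.11% were. Oas2 had log2 fold changes of 1.78, 1.55, -0.44 and 1.02 in HSC, MPP1, MPP2-labelled and MPP4-labelled cells (adjusted p = 7.24e-10, after subtraction 0.000102). Ifitm1 had -0.19, 0.24, -0.57 and 1.74 in the same order (adjusted p = 5.42e-09, after subtraction 1.39e-06). Oasl2 had 0.79, 1.02, -0.41 and 0.90 (adjusted p = 2.91e-06, after subtraction 0.0027). Both synthetase-family genes were thus higher in KO-labelled HSC, MPP1 and MPP4-labelled cells and lower, short of the threshold as deposited, in MPP2-labelled cells. Stat2, Ly6e and Ifit2 were called as deposited (adjusted p = 0.00927, 0.0109 and 0.0183) and not after subtraction (adjusted p = 0.139, 0.342 and 0.147). The call of Ifit2 was lost without WT HSC replicate 1 (adjusted p = 0.0667) or KO-labelled HSC replicate 3 (adjusted p = 0.0524), and those of Samhd1, Eif2ak2, Cmpk2, Oas3, Parp14, Rsad2 and Rtp4 without at least 1 library. The number of calls was 8 without WT HSC replicate 1 or KO-labelled HSC replicate 3 and 7 without WT MPP2-labelled replicate 3.

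**Figure D3:**
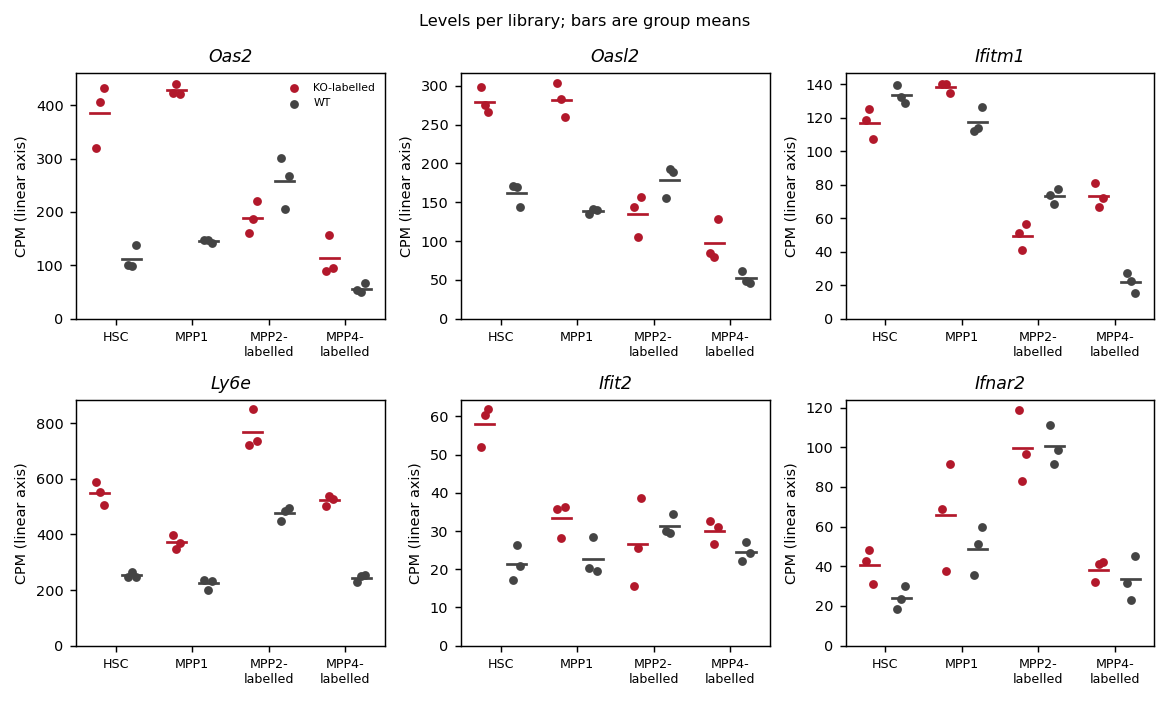
Levels of 6 genes in each library (y axis, CPM, linear from 0; points are libraries, bars are means of 3), with KO-labelled cells left of WT cells in each population. Oas2 and Oasl2 are higher in KO-labelled HSC and MPP1 and not in MPP2-labelled cells; Ifitm1 is higher in KO-labelled MPP4-labelled cells and lower in KO-labelled MPP2-labelled cells; Ly6e is higher in KO-labelled cells of all 4 populations.

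Ratios of 2 genes within a library do not depend on how libraries are scaled, and background made up at most 7.22% of the count of any of these 4 genes in any group. The pairs were chosen after the values were seen, so the ratios are a description with no test. The Oas2 count over the Oas3 count was 1.81, 1.91 and 1.93 in KO-labelled HSC, against 0.848, 0.86 and 0.762 in WT HSC. In MPP1 it was 2.29, 2.12 and 2.46 in KO-labelled libraries, against 0.828, 0.846 and 0.803 in WT libraries. Within the synthetase family Oas2 therefore gained on Oas3 in both populations, with no overlap. In MPP2-labelled cells the ratio was 1.55, 0.971 and 1.77 in KO-labelled libraries, against 1.52, 1.1 and 1.18 in WT libraries, and in MPP4-labelled cells 0.694, 1.4 and 1.88 in KO-labelled libraries, against 0.442, 0.675 and 0.628 in WT libraries. The first of these pairs of groups overlapped and the second did not. The Ifitm1 count over the Ly6e count was 0.201, 0.226 and 0.212 in KO-labelled HSC, against 0.564, 0.503 and 0.522 in WT HSC. It was also lower in KO-labelled MPP1 (0.352, 0.404 and 0.364, against 0.471, 0.566 and 0.546 in WT MPP1) and in KO-labelled MPP2-labelled cells (0.0711, 0.0481 and 0.0768, against 0.165, 0.142 and 0.157 in WT). In MPP4-labelled cells it was higher, at 0.161, 0.124 and 0.137 in KO-labelled libraries, against 0.12, 0.0905 and 0.0606 in WT libraries.

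**Figure D4:**
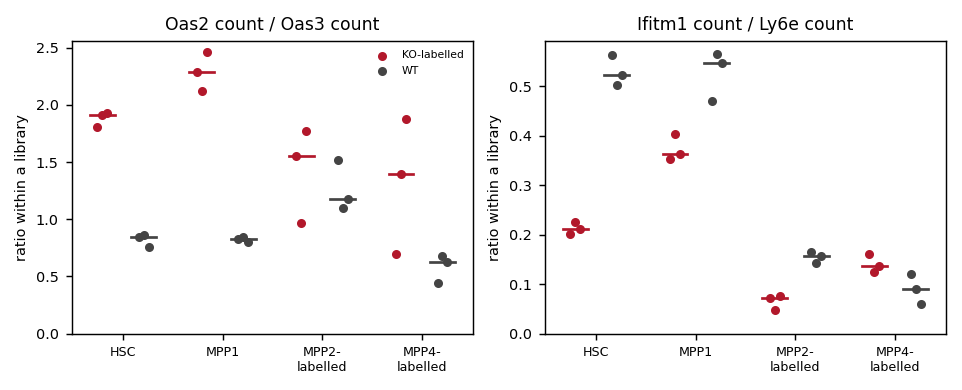
Ratio of 2 counts within each library (y axis, linear from 0; points are libraries, bars are medians of 3), with KO-labelled cells left of WT cells in each population. Oas2 over Oas3 is 1.81 to 1.93 in KO-labelled HSC and 0.762 to 0.86 in WT HSC, and Ifitm1 over Ly6e is lower in KO-labelled HSC, MPP1 and MPP2-labelled cells and higher in KO-labelled MPP4-labelled cells.

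Some markers of stem cells, progenitors and other cells moved with genotype. Many other genes did too: in KO-labelled HSC 18.3% of all genes tested rose and 24.8% fell. After subtraction these shares were 4.42% and 4.20%. The marker counts below were not tested against such shares, which are given above for the other populations. Of 6 markers of plasmacytoid dendritic cells, the main producers of interferon, 4 were tested and 3 fell in KO-labelled HSC (0 after subtraction). Their summed level was 2.03 to 6.0 CPM in KO-labelled HSC and 16.4 to 36.6 CPM in WT HSC, Cox6a2 was at 0 in all 24 libraries, and Siglech had 0 to 1 counts in KO-labelled HSC and 2 to 35 in WT HSC. Of 7 monocyte and macrophage markers, 6 were tested and 4 fell in KO-labelled HSC (1 after subtraction), with a summed level of 16.9 to 22.7 CPM in KO-labelled HSC and 52.9 to 86.7 CPM in WT HSC. In MPP2-labelled cells 1 of these rose (0 after subtraction), with summed levels of 286 to 370 CPM in KO-labelled and 141 to 168 CPM in WT cells. Neutrophil markers (2 of 4 tested), B cell markers (2 of 2) and markers of stroma and endothelium (3 of 5) also fell in KO-labelled HSC, with 0, 1 and 0 called after subtraction. Of 6 T and NK cell markers and 3 conventional dendritic markers tested, 0 were called in KO-labelled HSC. T and NK cell markers had 0 calls in the other populations too. Red cell markers fell in KO-labelled cells in all 4 populations, 4, 4, 2 and 4 of 4 in HSC, MPP1, MPP2-labelled and MPP4-labelled cells. Of 7 stem cell markers tested in HSC, 3 rose and 1 fell (1 and 1 after subtraction), with a summed level of 8270 to 8500 CPM in KO-labelled HSC and 4060 to 4180 CPM in WT HSC. Much of that sum was Mecom, with 5200 to 5530 CPM in KO-labelled HSC and 1790 to 1920 CPM in WT HSC. As deposited, 3 stem cell markers rose and 0 fell in MPP1. In MPP2-labelled cells 1 rose and 3 fell, and in MPP4-labelled cells 3 rose and 1 fell. Of 6 markers of lymphoid-primed progenitors, 6 fell in KO-labelled HSC and 4 after subtraction, with a summed level of 56.8 to 79.1 CPM in KO-labelled HSC and 135 to 151 CPM in WT HSC. Other populations differed: as deposited, 3 of these rose and 2 fell in MPP1. In MPP2-labelled cells 0 rose and 1 fell, and in MPP4-labelled cells 3 rose and 1 fell. Of 6 markers of megakaryocyte and erythroid-primed progenitors, 3 rose and 1 fell in KO-labelled HSC (1 and 1 after subtraction), with a summed level of 742 to 853 CPM in KO-labelled HSC and 275 to 315 CPM in WT HSC. As deposited, 0 of these rose and 4 fell in MPP1. In MPP2-labelled cells 0 were called, and in MPP4-labelled cells 1 rose and 1 fell. Some lists share a marker, so their counts and sums are not independent. Ccr9 is on the plasmacytoid and lymphoid-primed lists, Cd48 on both progenitor lists, and Slamf1 on the stem cell and megakaryocyte lists. The part of any of these cell types in the results above was not tested.

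The next comparisons set the WT populations against WT HSC, which all 3 share as their baseline. WT MPP1 differed from WT HSC in 1 member of 35, where 1.97% of all genes were higher and 1.83% lower. Ifnar2 had 35.6, 51.04 and 59.6 CPM in WT MPP1, against 18.6, 23.6 and 30 CPM in WT HSC (log2 fold change 1.02 ± 0.27, adjusted p = 0.0186), with no overlap. It was also called after subtraction, where 2.71% of all genes were higher and 1.73% lower. Its call was lost without WT HSC replicate 1 or 2 or WT MPP1 replicate 2 or 3 (log2 fold changes 0.85 to 1.00, adjusted p from 0.068 to 0.159). Other members had log2 fold changes of -0.55 (Mavs) to 0.84 (Isg20).

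In WT MPP2-labelled cells 8 members were higher than in WT HSC and 1 lower, where 11.7% of all genes were higher and 7.37% lower. Ifnar2 had 111, 91.6 and 98.5 CPM in WT MPP2-labelled cells, a 4.17-fold difference from the WT HSC values above (log2 fold change 2.06 ± 0.27, adjusted p = 1.01e-07). Ly6e had 447, 485 and 495 CPM in WT MPP2-labelled cells, against 247, 263 and 247 CPM in WT HSC (log2 fold change 0.91 ± 0.092, adjusted p = 1.33e-10). Oas2 had 301, 205 and 268 CPM in WT MPP2-labelled cells, against 101, 97.9 and 139 CPM in WT HSC (log2 fold change 1.20 ± 0.16, adjusted p = 1.93e-07). All 3 lay above WT HSC in each library and were called after subtraction (log2 fold changes 2.05, 0.59 and 0.90). Sting1 had 104, 82.6 and 81.6 CPM in WT MPP2-labelled cells, against 23.6, 32.1 and 45.1 CPM in WT HSC (log2 fold change 1.41 ± 0.31, adjusted p = 0.000619). Trim25 had 142 to 167 CPM in WT MPP2-labelled cells and 86.2 to 130.3 CPM in WT HSC (log2 fold change 0.55 ± 0.15, adjusted p = 0.00781). Irf9, Dtx3l and Rtp4 were also called as deposited (log2 fold changes 0.61, 0.50 and 0.91), and each was lost without single libraries. Irf9 was not called without WT HSC replicate 2 or 3 or WT MPP2 replicate 1, 2 or 3 (log2 fold changes 0.53 to 0.64, adjusted p from 0.0519 to 0.12). Dtx3l was not called without WT HSC replicate 2 or 3 or WT MPP2 replicate 2 or 3 (log2 fold changes 0.38 to 0.50, adjusted p from 0.0881 to 0.214). Rtp4 was not called without WT HSC replicate 2 or 3 or WT MPP2 replicate 1, 2 or 3 (log2 fold changes 0.73 to 1.02, adjusted p from 0.0541 to 0.215). Trim25 was lost without WT HSC replicate 1 (log2 fold change 0.42, adjusted p = 0.0928). Ifitm1 was lower, with 73.6, 68.8 and 77.8 CPM in WT MPP2-labelled cells, against 139.6, 132 and 129 CPM in WT HSC (log2 fold change -0.87 ± 0.17, adjusted p = 8.91e-05). After subtraction, where 6.53% of all genes were called higher and 4.03% lower, Ifnar2, Ly6e, Oas2 and Ifitm1 were the members called. The other 5 had adjusted p from 0.0622 (Sting1) to 0.611 (Dtx3l).

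In WT MPP4-labelled cells 8 members were lower than in WT HSC and 0 higher, where 7.43% of all genes were lower and 2.91% higher, and the members' median log2 fold change was -0.48, against 0.046 over all genes. Ifitm1 had 27.2, 22.7 and 15.4 CPM in WT MPP4-labelled cells, against 139.6, 132 and 129 CPM in WT HSC (log2 fold change -2.61 ± 0.18, adjusted p = 4.89e-15), 6.1-fold lower and the largest difference of these 8. Oasl2 had 61.9, 48.7 and 46.1 CPM in WT MPP4-labelled cells, against 171, 169.5 and 144 CPM in WT HSC (log2 fold change -1.62 ± 0.16, adjusted p = 9.88e-11). Samhd1 had 104, 97.98 and 105 CPM in WT MPP4-labelled cells, against 176, 211 and 185 CPM in WT HSC (log2 fold change -0.90 ± 0.12, adjusted p = 9e-08). These 3 genes lay below WT HSC in each library. Oas2 had 52.9, 49.5 and 66.3 CPM in WT MPP4-labelled cells, against 101, 97.9 and 139 CPM in WT HSC (log2 fold change -1.002 ± 0.17, adjusted p = 2.22e-05). Irf1 had 8.07, 13.1 and 5.47 CPM in WT MPP4-labelled cells, against 19.1, 22.8 and 27.1 CPM in WT HSC (log2 fold change -1.36 ± 0.36, adjusted p = 0.00715). Eif2ak2 had 79.6 to 97.4 CPM in WT MPP4-labelled cells and 104 to 144 CPM in WT HSC (log2 fold change -0.55 ± 0.15, adjusted p = 0.00764). The first 5 of these were called after subtraction, where 7.10% of all genes were called lower and 4.46% higher. Sting1 and Parp14, whose groups overlapped, completed the 8 (log2 fold changes -1.15 and -0.71). After subtraction Eif2ak2, Sting1 and Parp14 were not called (adjusted p = 0.0717, 0.0985 and 0.0851). Single libraries ended 4 of the calls. Irf1 was not called without WT MPP4 replicate 3 (log2 fold change -1.13, adjusted p = 0.0711). Eif2ak2 was not called without WT HSC replicate 2 or WT MPP4 replicate 2 (log2 fold changes -0.49 to -0.45, adjusted p from 0.0532 to 0.0828). The call of Sting1 ended without WT HSC replicate 3 or WT MPP4 replicate 2 or 3 (log2 fold changes -0.91 to -0.87, adjusted p from 0.131 to 0.143). That of Parp14 ended without WT HSC replicate 2 or 3 or WT MPP4 replicate 1 or 3 (log2 fold changes -0.70 to -0.53, adjusted p from 0.078 to 0.225).

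**Figure D5:**
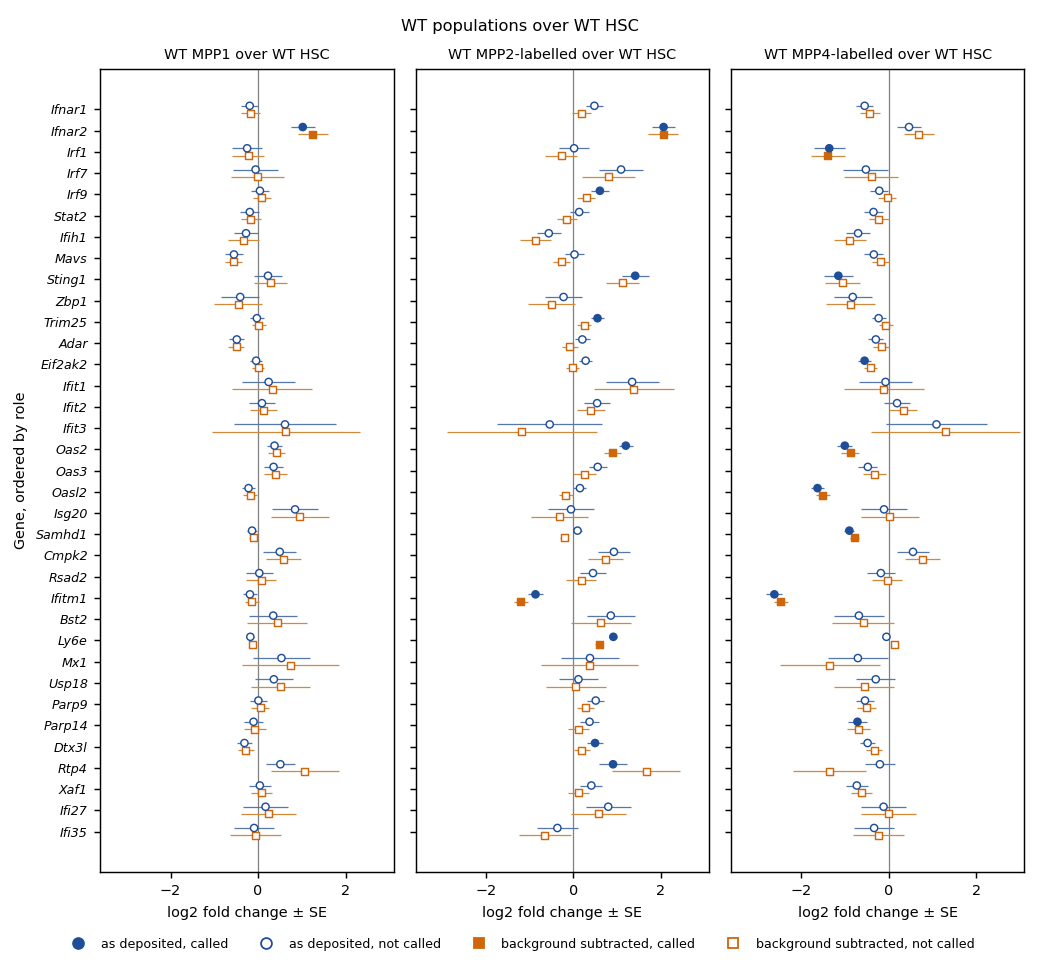
Log2 fold change of each WT progenitor population over WT HSC (x axis, bars are ± SE of the fit) for the 35 tested genes (rows), for the counts as deposited (blue circles) and after background subtraction (orange squares); filled symbols have an adjusted p below 0.05. Ifnar2 is higher in WT MPP1 and MPP2-labelled cells, and Ifitm1 is lower in WT MPP2-labelled and MPP4-labelled cells.

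Other genes of the pathway made up a list of 99, of which 97 are in the table and 77 were tested. The 10 interferon genes on that list, among them Ifnb1 and Ifna1, had at most 10 counts in any library and were not tested. In KO-labelled HSC 28 of the 77 rose and 3 fell (2 and 2 after subtraction), in MPP1 23 rose and 0 fell (8 and 0), in MPP2-labelled cells 5 rose and 5 fell (1 and 4), and in MPP4-labelled cells 26 rose and 1 fell (8 and 1). Of all genes tested, 18.3% rose and 24.8% fell in HSC (4.42% and 4.20% after subtraction). In MPP1 8.71% rose and 4.90% fell (3.20% and 2.83%). In MPP2-labelled cells 3.73% rose and 4.17% fell (1.63% and 3.08%). In MPP4-labelled cells 11.4% rose and 6.47% fell (4.48% and 2.86%). After subtraction the pathway genes were called less often than all genes in HSC in both directions, and less often higher in MPP2-labelled cells.

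Irf2, a factor that competes with Irf1 for its sites, had 781 to 857 CPM in KO-labelled HSC and 434 to 491 CPM in WT HSC (log2 fold change 0.82 ± 0.089, adjusted p = 6.47e-10). Lgals3bp, a secreted interferon-induced glycoprotein, had 408 to 474 CPM in KO-labelled HSC and 223 to 237 CPM in WT HSC (log2 fold change 0.92 ± 0.11, adjusted p = 7.22e-09). Both were higher in KO-labelled HSC in each library and were called after subtraction. Nlrc5, the activator of MHC class I genes, had 696 to 787 CPM in KO-labelled HSC and 411 to 455 CPM in WT HSC (log2 fold change 0.77 ± 0.099, adjusted p = 3.73e-08). The phosphatase Ptpn6, which restrains JAK signalling, had 317 to 359 CPM in KO-labelled HSC and 153 to 225 CPM in WT HSC (log2 fold change 0.88 ± 0.14, adjusted p = 1.22e-06). Neither was called after subtraction (adjusted p = 0.139 and 0.137). In MPP1 Lgals3bp had 277 to 343 CPM in KO-labelled MPP1 and 123 to 156 CPM in WT MPP1 (log2 fold change 1.11 ± 0.11, adjusted p = 4.42e-10). The guanylate-binding protein gene Gbp7 had 193 to 231 CPM in KO-labelled MPP1 and 93.2 to 107 CPM in WT MPP1 (log2 fold change 1.03 ± 0.14, adjusted p = 3.04e-07). Ptpn6 had 287 to 341 CPM in KO-labelled MPP1 and 149 to 153 CPM in WT MPP1 (log2 fold change 1.04 ± 0.14, adjusted p = 1.67e-07). Nlrc5 had 500.0 to 534 CPM in KO-labelled MPP1 and 294 to 358 CPM in WT MPP1 (log2 fold change 0.62 ± 0.099, adjusted p = 8.17e-06). The groups did not overlap for any of these 4 genes in MPP1, and Nlrc5 was not called after subtraction (log2 fold change 0.33, adjusted p = 0.0753).

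In MPP2-labelled cells Lgals3bp rose again, with 258 to 314 CPM in KO-labelled cells and 189 to 206 CPM in WT cells (log2 fold change 0.53 ± 0.11, adjusted p = 0.000933). Ifngr1, a chain of the receptor for interferon gamma, also rose, with 181 to 234 CPM in KO-labelled cells and 119 to 131 CPM in WT cells (log2 fold change 0.67 ± 0.16, adjusted p = 0.00475), and was not called after subtraction (log2 fold change 0.53, adjusted p = 0.0688). Ifi203, of the family of DNA-binding p200 proteins, fell there, with 415 to 491 CPM in KO-labelled cells and 703 to 757 CPM in WT cells (log2 fold change -0.70 ± 0.091, adjusted p = 2.51e-07). Irf2 fell as well, with 344 to 447 CPM in KO-labelled cells and 506 to 535 CPM in WT cells (log2 fold change -0.42 ± 0.089, adjusted p = 0.00118). In MPP4-labelled cells Ifi203 rose, with 284 to 310.0 CPM in KO-labelled cells and 137 to 163 CPM in WT cells (log2 fold change 0.97 ± 0.094, adjusted p = 1.45e-10). Lgals3bp had 232 to 281 CPM in KO-labelled cells and 131 to 138 CPM in WT cells (log2 fold change 0.93 ± 0.11, adjusted p = 4e-08). Ptpn6 had 136 to 202 CPM in KO-labelled cells and 74.7 to 103 CPM in WT cells (log2 fold change 0.94 ± 0.14, adjusted p = 2.62e-06). These 3 genes did not overlap between the groups. Pias1 had 269 to 342 CPM in KO-labelled cells and 185 to 208 CPM in WT cells (log2 fold change 0.65 ± 0.10, adjusted p = 6.99e-06). Ifi203 thus fell in one of these populations and rose in the other.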

How the data were processed

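The deposited table holds whole-number read counts per gene for 24 libraries, not normalized, with gene names and Ensembl identifiers. The submitters' processing notes name build mm39, DESeq2 and SAMtools 1.12 without saying what each did; the aligner, counter, annotation and strand setting are not given in the sources used here. Columns were matched to samples by the description field of the labels, and groups and replicate numbers come from the titles.

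The 37 members, the pathway and marker lists and the rules for naming genes were chosen with earlier results of these data known. The rule for named members took those called with the smallest adjusted p and no overlap between groups, up to 8 per comparison of genotypes in 1 population and 6 per comparison of WT populations. For the average and the difference among populations it took up to 6 called members whatever their overlap, and it took up to 4 called pathway genes per comparison of genotypes. In edgeR 4.0.16 (R 4.3.3), genes passing filterByExpr (21964 of 56748) were scaled by the trimmed mean of M-values, and a single quasi-likelihood fit over the 24 libraries gave each of the 8 groups its own mean. It left 16 residual degrees of freedom, and the common biological coefficient of variation was 0.393. P-values were adjusted by Benjamini-Hochberg over all genes tested and called below 0.05. Each SE was obtained by dividing the log2 fold change by the root of its F statistic. Fold changes divide KO-labelled by WT, or a WT population by WT HSC. The code was tested on simulated data.

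Background per kb of gene span was estimated in each library from 1770 receptor genes, multiplied by the span of each gene and subtracted, with differences rounded and negatives set to 0, before a fit of 18441 genes. The estimate can exceed the count itself, as for Mx1 in KO-labelled MPP4-labelled cells, where it was 106% of the count. Spans came from GENCODE M21 (GRCm38), an earlier build than that of the counts, in which 91.9% of identifiers were found; no coordinates were mixed. The span of Rtp4 in that annotation is 93.9 kb, so its background is uncertain. Adar, Irf1, Irf7, Irf9, Ifnar2, Rtp4, Parp9 and Dtx3l overlap another protein-coding gene there. Promoters are RefSeq entries of GRCm38.p6. Alternatives were no filter, size factors from medians of ratios, at least 5 CPM in 3 libraries, DESeq2 1.42.0, the replicate number as a block, both background subtractions (by span or exon length), only the 6 libraries compared, populations summed, and each library left out.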

Additional observations from a re-analysis of the deposited data

Results flagged for a closer look

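For 13 genes the change with genotype differed among the 4 populations by the test of that difference (edgeR, 3 numerator degrees of freedom, adjusted p over all genes). Log2 fold changes of KO-labelled over WT cells are given in the order HSC, MPP1, MPP2-labelled and MPP4-labelled. Oas2 had 1.78, 1.55, -0.44 and 1.02 (adjusted p = 7.24e-10). Ifitm1 had -0.19, 0.24, -0.57 and 1.74 (adjusted p = 5.42e-09), and Oasl2 had 0.79, 1.02, -0.41 and 0.90 (adjusted p = 2.91e-06). These 3 were also called after background subtraction.

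The other 10 were called as deposited and not after the subtraction. Stat2 had 1.09, 1.01, -0.045 and 0.24 (adjusted p = 0.00927). Ly6e, higher in KO-labelled cells of each population, had 1.12, 0.73, 0.69 and 1.10 (adjusted p = 0.0109). Ifit2 had 1.44, 0.55, -0.24 and 0.30 (adjusted p = 0.0183), and Samhd1 had 0.58, 0.79, 0.18 and 0.34 (adjusted p = 0.0187). The kinase gene Eif2ak2 had 0.67, 0.55, 0.013 and 0.74 (adjusted p = 0.0255). Cmpk2 and Rsad2, neighbours on chromosome 12, had 1.20, -0.0014, -0.82 and -0.11 (adjusted p = 0.0299) and 0.79, 0.089, -0.84 and 0.012 (adjusted p = 0.0439). Oas3 had 0.56, 0.089, -0.53 and -0.027 (adjusted p = 0.0441). Parp14 had 0.28, 0.33, -0.69 and 0.17 (adjusted p = 0.04), and Rtp4 had 0.17, 0.27, -1.23 and 0.11 (adjusted p = 0.0463). As deposited, the value in MPP2-labelled cells was the lowest of the 4 in each of the 13 genes. For Ly6e it differed from that in MPP1 by less than the SE, and after subtraction the lowest value was in MPP1 for Ly6e (0.40), in HSC for Ifitm1 (-0.74) and in MPP4-labelled cells for Samhd1 (0.0073).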

How the results depend on the processing

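Background subtraction by gene span gave these counts of members called: HSC 4 (18 as deposited), MPP1 6 (12), MPP4-labelled cells 4 (9), average 6 (18), difference among populations 3 (13), WT MPP2-labelled over WT HSC 4 (9) and WT MPP4-labelled over WT HSC 5 (8). Subtraction by exon length gave 11 for HSC and 8 for the difference among populations. Median-of-ratios size factors gave 11 and 7 for these; they moved the median log2 fold change of all genes to -0.46 in HSC, -0.20 in MPP1 and -0.24 in MPP4-labelled cells, against -0.31, -0.10 and -0.077 in the fit reported. The 7 HSC calls lost that way were Ifnar2, Irf9, Zbp1, Adar, Ifit1, Oas3 and Rsad2, with adjusted p from 0.0509 to 0.112. Under these and the other settings that keep all libraries, the other counts stayed within 1.5 times. Directions were not always the same. In HSC 1 member was called lower under DESeq2 (12 higher) and with only the 6 libraries compared (14 higher). For the average 1 was called lower under median-of-ratios size factors, at 5 CPM, under DESeq2 and with the replicate block. With only the 6 libraries compared, 2 were higher and 7 lower in MPP2-labelled cells. For single genes, 27 of 94 calls were lost under median-of-ratios size factors, 8 with no filter, 1 at 5 CPM, 15 under DESeq2, 58 under subtraction by span, 22 under subtraction by exon length, 11 of 63 with only the 6 libraries compared, 2 of 18 with populations summed, and 174 of 1122 with a library left out. The replicate number as a block lost 4 of 94. These were Oas3, Rsad2 and Rtp4 for the difference among populations, and Rtp4 in WT MPP2-labelled cells over WT HSC. The 1 reversal was Ifitm1 over the 4 populations, -0.041 (adjusted p = 0.784) after subtraction by span.

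With 1 library left out, calls numbered 12 to 16 in HSC, 9 to 11 in MPP1, 2 to 4 in MPP2-labelled cells (2 without WT replicate 1 or 3, against 6 with all libraries), 6 to 9 in MPP4-labelled cells, 16 to 20 for the average, 7 to 14 for the difference among populations, 0 to 1 for WT MPP1 (0 without WT HSC replicate 1 or WT MPP1 replicate 2 or 3), and 6 to 9 for WT MPP2-labelled and WT MPP4-labelled cells. In MPP1 without KO-labelled replicate 1, and in MPP4-labelled cells without KO-labelled replicate 1, 1 of the members called was lower. Some of the fits for the average also held 1 member called lower. Same-numbered KO-labelled and WT libraries of a population had correlations of their deviations of -0.0048 to 0.0163, with 0 of 12 pairs over 0.1. These correlations over all genes cannot show whether same-numbered libraries share an animal, day or batch. Same-numbered libraries of different populations were not compared, and the fit treated all libraries as independent. With the replicate number as a block the counts were 18, 12, 6 and 9 in the 4 populations, 19 for the average (18 higher and 1 lower), 10 for the difference among populations, and 1, 8 and 8 for the WT comparisons. At this depth Ifit3 had at most 24 counts in a library, and Isg15 could not be tested.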

Other observations

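Some further pathway genes, chosen after their values were seen, were called after background subtraction. In KO-labelled MPP1, Psmb9, a subunit of the immunoproteasome, Rnaseh2a, the catalytic subunit of an RNase that removes ribonucleotides from DNA, and Tor3a, an interferon-induced torsin, had a log2 fold change of 1.24 (adjusted p = 0.049), a log2 fold change of 1.37 (adjusted p = 0.00154) and a log2 fold change of 1.08 (adjusted p = 0.0278). In KO-labelled MPP4-labelled cells Oas1g, a further oligoadenylate synthetase with close paralogs, had a log2 fold change of 2.25 (adjusted p = 0.0292), and Mx2, the paralog of Mx1, had a log2 fold change of -1.73 (adjusted p = 0.0141). In KO-labelled HSC Jak1, the receptor kinase, had a log2 fold change of -0.46 (adjusted p = 0.0112). As deposited its log2 fold change was 0.022 (adjusted p = 0.886). The log2 fold change of Ly6e, with little background of its own, also moved down in HSC, from 1.12 to 0.57, with the scaling of the libraries.

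Interferon genes had few counts, some above and some below the count expected from background. Over the 24 libraries together Ifnb1 had 11 counts (7.68 expected from background), Ifna1 25 (5.84), Ifna2 13 (10.6) and Ifng 28 (49.6). Ifnk, Ifnl2 and Ifnl3 had 0, where 20, 16.6 and 15.2 were expected from background.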
